A study of Mus musculus with 8 samples.

Results

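Complex I, the NADH:ubiquinone oxidoreductase of the inner mitochondrial membrane, is described here through the genes that encode its nuclear subunits and its assembly factors. The genes were taken by name, as every gene in the table whose symbol begins with Nduf, which gave 49 of the 17191 genes listed. They comprise 39 subunit entries, 8 assembly factors named Ndufaf, and 2 genes, Ndufa4 and Ndufa4l2, that keep an Nduf name although Ndufa4 protein is now placed in complex IV. Of the 39 subunit entries, 36 are subunits of the complex and 3 (Ndufa11b, Ndufb4b and Ndufb4c) are near-identical copies of a subunit gene. Ndufb1 and the subunits encoded by the mitochondrial genome were not analysed here.

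RNA came from whole mouse hearts 4 weeks after transverse aortic constriction (TAC), a narrowing of the aorta that loads the left ventricle with pressure and makes the heart grow. The S727A group held 4 libraries from mice with STAT3 S727A, a form of the transcription factor in which a serine that can be phosphorylated is replaced by alanine. The WT group held 4 libraries from wild-type mice, and every heart of both groups had undergone TAC, so the comparison is between genotypes under pressure load. The labels do not divide the 8 libraries into batches and give no strain, sex or age. They also do not say which animal each library came from, so the p-values reflect variation among 8 libraries that may be partly technical.

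Complex I takes electrons from NADH, passes them through a flavin and a chain of iron-sulfur clusters to ubiquinone, and pumps protons out of the matrix. Its matrix arm holds the redox centres, its membrane arm the pumps, and accessory subunits surround this conserved core. Heart muscle draws most of its ATP from respiration and is rich in the complex. Part of the STAT3 in a cell is found in mitochondria, where phosphorylation of this serine has been tied to respiratory activity, and the complex I subunit Ndufa13, also called GRIM-19, was found apart from the complex as a regulator of cell death and is known to bind STAT3.

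No complex I gene passed the test for a difference between S727A and WT hearts. Of the 49 genes, 47 had enough counts to be tested, and edgeR's quasi-likelihood test called 0 of the 47 at an adjusted p under 0.05, where it called 0.146% of all 12998 genes tested, 0.0462% as higher in S727A and 0.1% as lower. In the authors' deposited table the q-value was likewise under 0.05 for none of them, and for 2.61% of all genes with a q-value. DESeq2 and limma-voom also called 0 of the 47, and DESeq2 called 4.11% of all genes to which it gave an adjusted p. At an unadjusted p under 0.05, 6 of the 47 genes passed in edgeR, 9 in DESeq2 and 6 in limma-voom. Over all genes, 2308, 2327 and 2321 passed in these 3 tests. Among the 37 subunit entries tested, 5 passed this unadjusted threshold in edgeR, or 13.5%, against 17.8% of all genes. They were Ndufa11, Ndufb2, Ndufs3 and Ndufc1, higher in S727A, where 8.97% of all genes passed in that direction, and Ndufv3, lower, where 8.79% did. The assembly factor Ndufaf4, lower in S727A, was the sixth gene.

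The subunit entries had a median log2 fold change of 0.07, with 26 of the 37 above 0, a side that turned when transcript length and GC content entered as offsets, which gave a median of -0.02. Over all genes tested the median was -0.0034 and 49.4% lay above 0. The 8 assembly factors had a median of -0.0013, with 4 on each side of 0. Groups that did not overlap, in counts scaled to library size, were seen for 3 subunits, all higher in S727A, or 8.11% of the subunit entries. They were also seen for 1 assembly factor, lower in S727A. Over all genes, 8.43% had groups that did not overlap, 4.07% higher in S727A and 4.36% lower. Counted in either direction, the subunits stood at the level of the whole table, and their 3 genes all lay on the side where 4.07% was the background.

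In the main comparison, the intervals of single genes limit the size of a difference. They make no allowance for reading many genes together or for other settings. The 95% interval of the fold change lay within 1.5-fold in either direction for all 37 subunit entries tested and for 7 of the 8 assembly factors, Ndufaf4 being the exception. It lay within 1.3-fold for 29 subunit entries and 6 assembly factors. The median standard error of the log2 fold change was 0.092 for the subunit entries and 0.132 for all genes, and the 36 subunits had at least 758 counts in every library. Assembly factors had between 112 and 790.

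**Figure D1:**
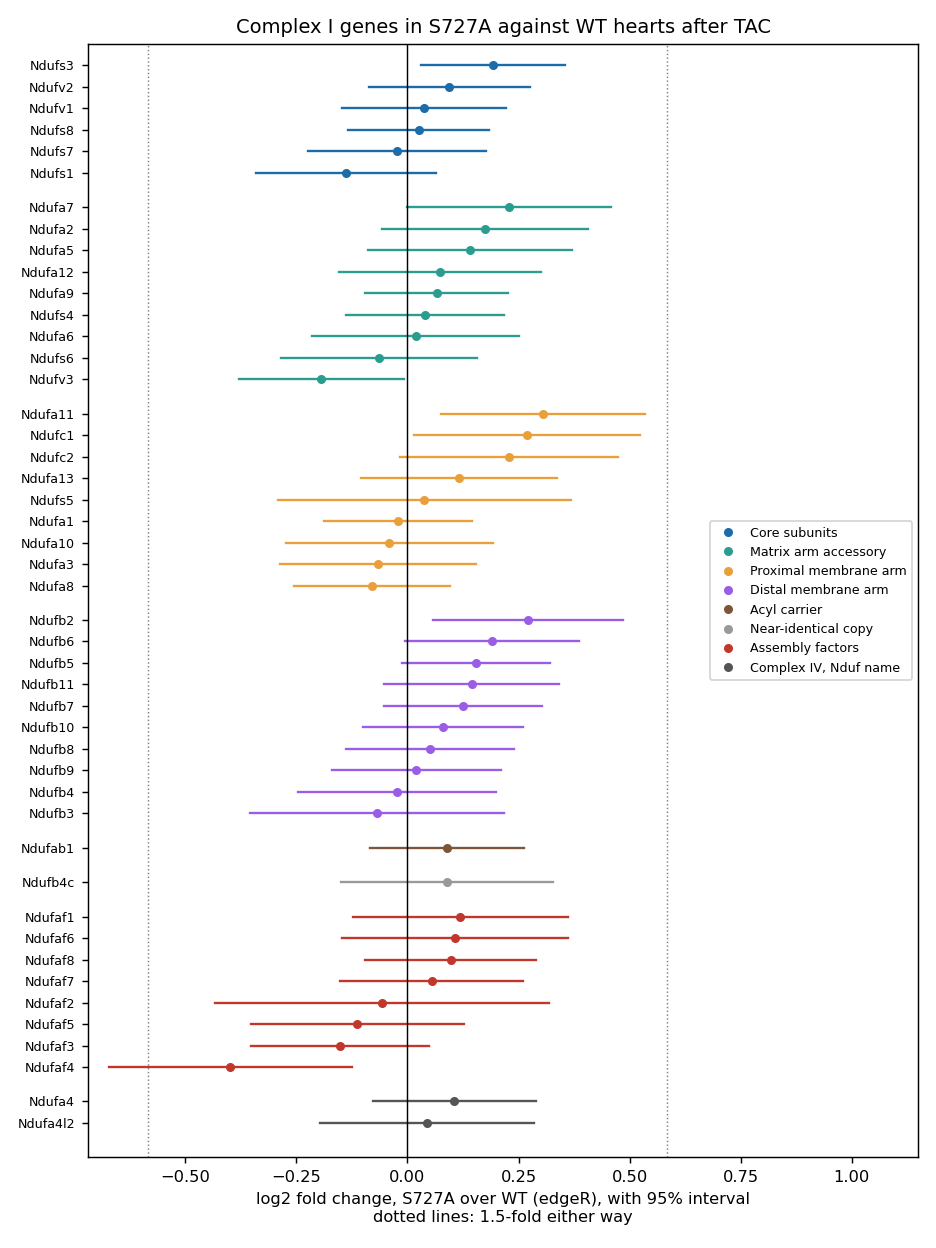
Log2 fold change of S727A over WT (horizontal axis) for 46 of the 47 Nduf genes tested, one gene per line, grouped by place in the complex. Points are edgeR estimates from 4 S727A and 4 WT libraries, bars are 95% intervals, and dotted lines mark 1.5-fold; only the interval of Ndufaf4 crosses one, and with length and GC offsets the median of the subunits turned from above to below 0.

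Ndufa13, a subunit at the foot of the membrane arm (NCBI gene 67184, minus strand of chromosome 8, 69894163 to 69902558 of GRCm38.p6), was the member with a known tie to STAT3. It had 443, 344, 334 and 336 CPM (counts scaled to library size) in S727A 1 to 4, against 356, 338, 324 and 327 CPM in WT 1 to 4. Library S727A 1 stood apart from its group, and the other 3 S727A libraries lay within the WT range. The log2 fold change was 0.12 ± 0.10 (SE, 95% interval -0.11 to 0.34, adjusted p = 0.581), and it was 0.01 without S727A 1 and 0.04 with length and GC offsets. The authors' deposited table gives a log2 ratio of 0.12 with a q-value of 0.748. In the annotation, 375 of the gene's 1251 exonic bases overlap Tssk6 on the other strand, and the entry carries an Ensembl identifier that GENCODE gives to Yjefn3. The level of Ndufa13 is uncertain to that extent.

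Stat3 transcript itself averaged 164 ± 6.74 CPM in S727A hearts and 201 ± 23.2 CPM in WT hearts (SD, n = 4 libraries each, here and below). The groups did not overlap, and the log2 fold change of -0.29 ± 0.09 (SE) did not pass (adjusted p = 0.155). Counts per gene do not show the replaced codon, so the genotype was not checked from them.

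Ndufa11, Ndufs3, Ndufaf4 and Ndufa13 carry the comparison, the first of these with the largest difference among subunits and Ndufs3 with the largest among core subunits, both without length and GC offsets only, Ndufaf4 with the largest among assembly factors with or without them, and Ndufa13 for its tie to STAT3. Their promoter windows from RefSeq on GRCm38.p6, 250 bases before to 50 bases after an annotated start, are given 5′ to 3′ along the gene's strand. Capitals mark matches, on either strand, to the NRF1 motif, the ETS motif CCGGAAG or the STAT motif TTCNNNGAA, none of which overlapped another. The windows are chr17:56717512-56717811 (plus strand) for Ndufa11, chr2:90904672-90904971 (minus) for Ndufs3, chr4:24897833-24898132 (plus) for Ndufaf4 and chr8:69901971-69902270 (minus) for Ndufa13.
Ndufa11: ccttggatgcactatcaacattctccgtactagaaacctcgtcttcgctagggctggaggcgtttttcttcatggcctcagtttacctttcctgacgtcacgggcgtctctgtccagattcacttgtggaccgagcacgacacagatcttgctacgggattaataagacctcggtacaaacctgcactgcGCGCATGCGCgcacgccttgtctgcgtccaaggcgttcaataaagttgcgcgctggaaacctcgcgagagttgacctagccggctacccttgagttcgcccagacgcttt
Ndufs3: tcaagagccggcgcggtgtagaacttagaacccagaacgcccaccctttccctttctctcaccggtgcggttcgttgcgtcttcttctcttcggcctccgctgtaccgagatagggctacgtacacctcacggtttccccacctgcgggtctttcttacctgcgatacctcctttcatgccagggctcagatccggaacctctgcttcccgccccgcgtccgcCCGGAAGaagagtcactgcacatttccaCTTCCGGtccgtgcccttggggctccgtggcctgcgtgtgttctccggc
Ndufaf4: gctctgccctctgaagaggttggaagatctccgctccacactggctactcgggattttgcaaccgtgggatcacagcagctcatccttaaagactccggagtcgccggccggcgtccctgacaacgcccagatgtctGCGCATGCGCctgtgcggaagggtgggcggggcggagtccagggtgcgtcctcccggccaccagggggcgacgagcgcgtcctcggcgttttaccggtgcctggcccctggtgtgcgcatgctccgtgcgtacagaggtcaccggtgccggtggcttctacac
Ndufa13: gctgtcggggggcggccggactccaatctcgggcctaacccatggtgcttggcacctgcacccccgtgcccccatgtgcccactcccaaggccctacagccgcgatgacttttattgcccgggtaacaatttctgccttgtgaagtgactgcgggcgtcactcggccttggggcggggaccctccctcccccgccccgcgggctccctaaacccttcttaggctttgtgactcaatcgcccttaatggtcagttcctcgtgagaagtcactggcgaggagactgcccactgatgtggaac
Ndufa11 and Ndufaf4 each held 1 match to the NRF1 motif, at bases 191 and 138 of their windows, Ndufs3 held 2 matches to the ETS motif, at bases 224 and 252, and the window of Ndufa13 held none of the 3. That window belongs to a RefSeq start inside the gene span given above, and the sequence at the outermost start of Ndufa13 was not analysed here.

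NRF1 and the ETS factor GABP are known activators of nuclear genes for respiratory chain subunits. The NRF1 motif occurred in 8 of 34 promoter windows of 32 subunit genes, or 23.5%, in 2 of 7 windows of assembly factors, and in 4.60% of all 32851 promoter windows of the same length. The ETS motif occurred in 11.8% of the subunit windows, in 2 of the 7 assembly factor windows and in 8.86% of all windows. The STAT motif occurred in 2 subunit windows, those of Ndufa8 and Ndufb6, or 5.88%, against 8.30% of all windows, and in none of the 7 assembly factor windows. A match is only these letters in the window, and its absence draws nothing about a factor.

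Ndufs3 and Ndufs1 were the core subunits described in full. With the offsets they had log2 fold changes of 0.12 and -0.16, so which of them lay farther from 0 depends on the setting. The core of the matrix arm has 7 nuclear-encoded subunits, the proteins that bind NADH, carry the iron-sulfur clusters and form the ubiquinone site. Ndufs3 (gene 68349), which holds no cluster and helps seed the ubiquinone module, had 392, 368, 377 and 381 CPM in S727A 1 to 4, against 338, 312, 328 and 349 CPM in WT 1 to 4. Every S727A library lay above every WT library. The log2 fold change was 0.19 ± 0.07 (SE, 95% interval 0.03 to 0.36, adjusted p = 0.215), and DESeq2 gave an adjusted p of 0.0681.

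Ndufs1, the largest core subunit and a carrier of several iron-sulfur clusters, had 546, 588, 586 and 581 CPM in S727A 1 to 4, against 721, 646, 547 and 619 CPM in WT 1 to 4. Only WT 3 of the WT libraries lay within the S727A range, and the log2 fold change was -0.14 ± 0.09 (SE, adjusted p = 0.457). Ndufv2, which carries a cluster beside the flavin, had a log2 fold change of 0.09, and Ndufv1, which binds NADH and the flavin, had 0.04. Ndufs8, a carrier of clusters near the membrane, had 0.03, and Ndufs7, which carries the last cluster before ubiquinone, had -0.02. None of these core genes was called.

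Of the 9 accessory subunits of the matrix arm, none was called and 7 lay above 0, with a median of 0.07. With the offsets 5 lay above 0, with a median of 0.0054. Ndufv3, a small subunit at the tip of the arm, was the lowest of all subunits, with 246, 218, 208 and 227 CPM in S727A 1 to 4, against 272, 273, 242 and 241 CPM in WT 1 to 4. Only S727A 1 lay within the WT range. Its log2 fold change was -0.19 ± 0.09 (SE, 95% interval -0.38 to -0.0076, adjusted p = 0.264). Ndufa7, an accessory subunit of the same arm, had 0.23 ± 0.10 (SE, adjusted p = 0.282, and 0.099 with the offsets), with 217, 201, 169 and 189 CPM in S727A 1 to 4 and 148, 155, 167 and 192 CPM in WT 1 to 4, which overlap. Ndufa2, a subunit with a thioredoxin-like fold, had 0.17, and 0.051 with the offsets. Ndufs6, which binds zinc, had -0.06, and Ndufs4, whose loss causes Leigh syndrome in humans and a like disease in mice, had 0.04.

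The 9 accessory subunits of the proximal membrane arm, the part next to the matrix arm, had a median log2 fold change of 0.04 with 5 above 0 and 0 called, and a median of -0.067 with the offsets. Ndufa11 (gene 69875), an integral membrane subunit at the side of this arm, had the largest difference of any subunit without the offsets. It had 507, 418, 404 and 404 CPM in S727A 1 to 4, against 306, 339, 363 and 394 CPM in WT 1 to 4. The groups did not overlap, although WT 4 came close to the S727A libraries. The fold change was 1.24, a log2 fold change of 0.31 ± 0.11 (SE, 95% interval 0.08 to 0.53, adjusted p = 0.175), and it ranged from 0.22 to 0.37 when single libraries were left out. With the offsets it was 0.18, below the 0.29 of Ndufb2 and nearer to 0 than the -0.24 of Ndufv3, and without S727A 4 and WT 4 it was 0.40. The offsets used annotated lengths, 545 bases for Ndufa11, 4371 for Ndufb2 and 1582 for Ndufv3. The deposited values imply about 2606, 411 and 464 bases. Offsets from implied lengths were not tried, so this order may depend on the choice of length.

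Ndufc1, a short single-pass membrane subunit of the same arm, had 93.8, 115, 116 and 98.3 CPM in S727A 1 to 4, against 72.6, 81.9, 95.7 and 101 CPM in WT 1 to 4. WT 3 and WT 4 lay within the S727A range, and the log2 fold change was 0.27 ± 0.12 (SE, adjusted p = 0.256). Ndufa8, a subunit on the outer face of the membrane, had -0.08, and Ndufa3 had -0.07.

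The distal membrane arm, named for its Ndufb subunits, had a median of 0.10 over 10 subunits, with 8 above 0 and 0 called, and with the offsets a median of -0.012, with 4 above 0. Ndufb2, one of its small subunits, had 138, 126, 117 and 127 CPM in S727A 1 to 4, against 93.6, 95.3, 113 and 119 CPM in WT 1 to 4. The groups met at S727A 3 and WT 4. The log2 fold change was 0.27 ± 0.10 (SE, 95% interval 0.06 to 0.49, adjusted p = 0.193). Ndufb5 had 357.99, 378.52, 391.41 and 373.88 CPM in S727A 1 to 4, against 355.46, 333.69, 314.28 and 345.96 CPM in WT 1 to 4. These did not overlap, though S727A 1 and WT 1 were almost equal. In FPKM, which divides by length, they did overlap, at 387 to 449 in S727A libraries and 366 to 428 in WT libraries. The log2 fold change of Ndufb5 was 0.15 ± 0.08 (SE, adjusted p = 0.317, and 0.074 with the offsets). Its annotated exons share 616 bases with Mrpl47 on the other strand, and whether counting used strand is not stated in the labels or the file.

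Ndufb6 had a log2 fold change of 0.19 ± 0.09 (SE, adjusted p = 0.297, and 0.073 with the offsets). In the annotation, 257 of its 659 exonic bases overlap Smim27 on the other strand. Ndufb8, a subunit often probed as a sign of assembled complex, had 0.05, Ndufb9 had 0.02, Ndufb3 had -0.07 and Ndufb4 had -0.02. Ndufab1, the mitochondrial acyl carrier protein, which sits in both arms of the complex and also serves fatty acid and iron-sulfur synthesis, had 0.09. The copy Ndufb4c had 0.09. Since reads of Ndufb4 and its copies can be divided in different ways, their summed level is the safer value, 236 ± 8.07 CPM in S727A hearts and 232 ± 12.4 CPM in WT hearts (SD, n = 4 each). The copies Ndufa11b and Ndufb4b had about 1 and 19.4 estimated counts over all 8 libraries and were not tested.

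**Figure D2:**
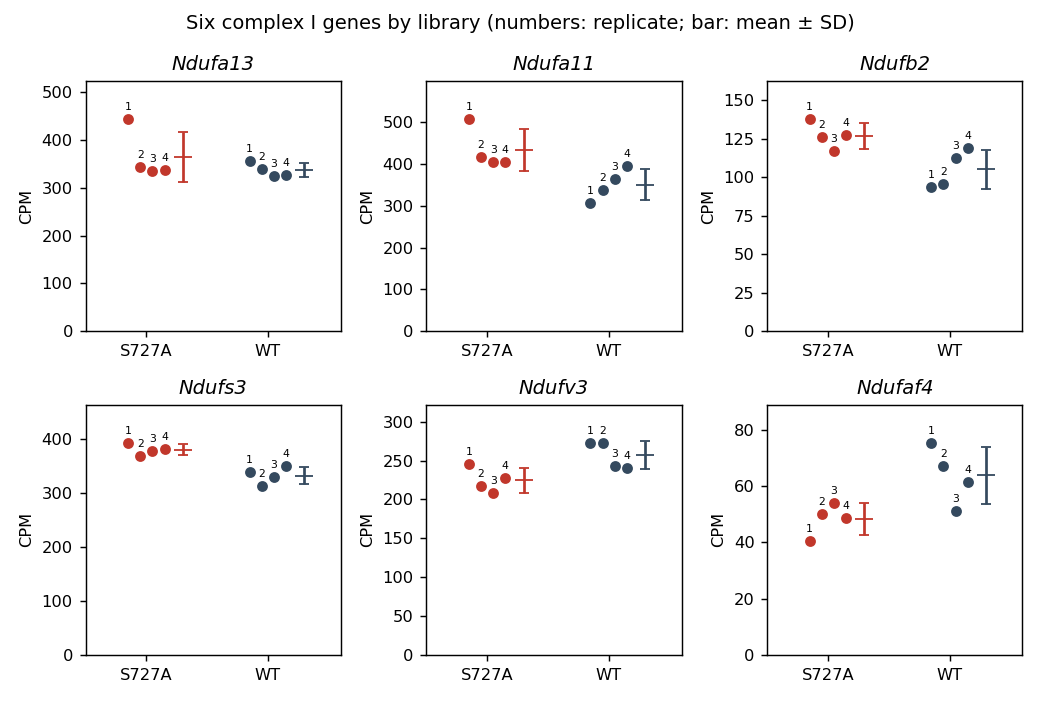
CPM (vertical axes, from 0) of 6 complex I genes in the S727A libraries (left in each panel) and the WT libraries (right), with each library as a numbered point and the group mean ± SD as a bar. Ndufa11 and Ndufs3 have no overlap between groups, while Ndufa13 has 1 high library, S727A 1, at 443 CPM.

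The assembly factors build the complex from modules and leave it once it is complete. None of the 8 was called. Ndufaf4 (gene 68493), which with Ndufaf3 binds the early ubiquinone module, had the largest difference of all 47 genes, with 40.5, 50.1, 54.0 and 48.8 CPM in S727A 1 to 4, against 75.3, 67.1, 51.2 and 61.5 CPM in WT 1 to 4. WT 3 lay within the S727A range, and the other 3 WT libraries above it. The log2 fold change was -0.40 ± 0.13 (SE, 95% interval -0.67 to -0.12, adjusted p = 0.156), and without WT 3 the adjusted p was 0.0531.

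Ndufaf3, its partner, had 25.9, 23.4, 27.4 and 27.0 CPM in S727A 1 to 4, against 27.4, 27.6, 31.3 and 28.9 CPM in WT 1 to 4. The groups did not overlap, though S727A 3 and WT 1 were almost equal, and the log2 fold change was -0.15 ± 0.09 (SE, adjusted p = 0.404). Ndufaf5, which hydroxylates Ndufs7, had -0.11, and Ndufaf8, which stabilizes Ndufaf5, had 0.10. Ndufaf7, a methyltransferase that acts early in assembly, had 0.05. Ndufaf1, part of the assembly complex of the membrane arm, had 0.12, Ndufaf6, which acts early, had 0.11, and Ndufaf2, which holds the place of Ndufa12 late in assembly, had -0.06. The last of these had the widest interval, -0.43 to 0.32.

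Assembly factors without an Nduf name likewise had no call. Of the 11 tested, 0 were called by edgeR, 1 had an unadjusted p under 0.05, 8 lay above 0 and the median log2 fold change was 0.04. With the offsets 6 lay above 0 and the median was 0.014, where the Ndufaf factors had -0.086. The gene with an unadjusted p under 0.05 was Dmac2, a factor for the distal membrane arm, at -0.26 ± 0.09 (SE, adjusted p = 0.173), with no overlap between groups. Ecsit, which works with Ndufaf1, had -0.20 ± 0.10 (SE, adjusted p = 0.304). Of 41 nuclear-encoded subunits of complexes II to V, 0 were called, 11 had an unadjusted p under 0.05, or 26.8% against 17.8% of all genes, and 35 lay above 0, with a median of 0.14. With the offsets 26 lay above 0, with a median of 0.034. The complex III subunits Uqcr10 and Uqcrh had 0.31 ± 0.09 and 0.24 ± 0.08 (SE), with adjusted p values of 0.140 and 0.180. Whether these differ from complex I was not tested. Ndufa4, at 0.11 ± 0.08 (SE, adjusted p = 0.540), and its relative Ndufa4l2, known to be induced by hypoxia, at 0.04 ± 0.11 (SE), were not called.

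Summed over the 39 subunit entries, complex I transcripts were 11363, 11065, 10760 and 10587 CPM in S727A 1 to 4, against 10978, 10583, 10058 and 10648 CPM in WT 1 to 4. The sums overlap, at 10944 ± 342 CPM in S727A hearts and 10567 ± 381 CPM in WT hearts (SD, n = 4 each). The 8 assembly factors together had 204 ± 10.6 CPM in S727A hearts and 218 ± 14.5 CPM in WT hearts (SD, n = 4 each). In RNA from whole hearts, fewer cells of a type and less RNA per cell cannot be told apart.

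Levels were compared between genes on the FPKM scale, which divides by length. The 36 subunits had a median of 389 FPKM over the 8 libraries and the assembly factors a median of 19.4 FPKM. Even the most abundant assembly factor, Ndufaf8, lay below the least abundant subunit. Ndufb8 was the highest subunit, at 982 ± 51.5 FPKM in S727A hearts and 968 ± 69.1 FPKM in WT hearts, and Ndufs4 the lowest, at 73.8 ± 2.29 FPKM in S727A hearts and 73.1 ± 5.43 FPKM in WT hearts (SD, n = 4 each). The highest and lowest subunits thus differed by 13.3 times in level, while the genotypes differed by at most 1.24-fold in any subunit in the main comparison.

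Ndufa11 came next to the lowest, at 165 ± 16.9 FPKM in S727A hearts and 136 ± 16.0 FPKM in WT hearts (SD, n = 4 each). That place depends on length. The length that the authors' counts and FPKM imply for Ndufa11 averages 2607 bases in S727A libraries and 2601 bases in WT libraries, whereas its principal transcript in GENCODE M21 has 545, so its FPKM is 4.78 times lower than that transcript would give. Levels of the other subunits near it in the order, such as Ndufb6 at 168 FPKM in S727A hearts and 151 FPKM in WT hearts, are not separated from it by their spread.

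**Figure D3:**
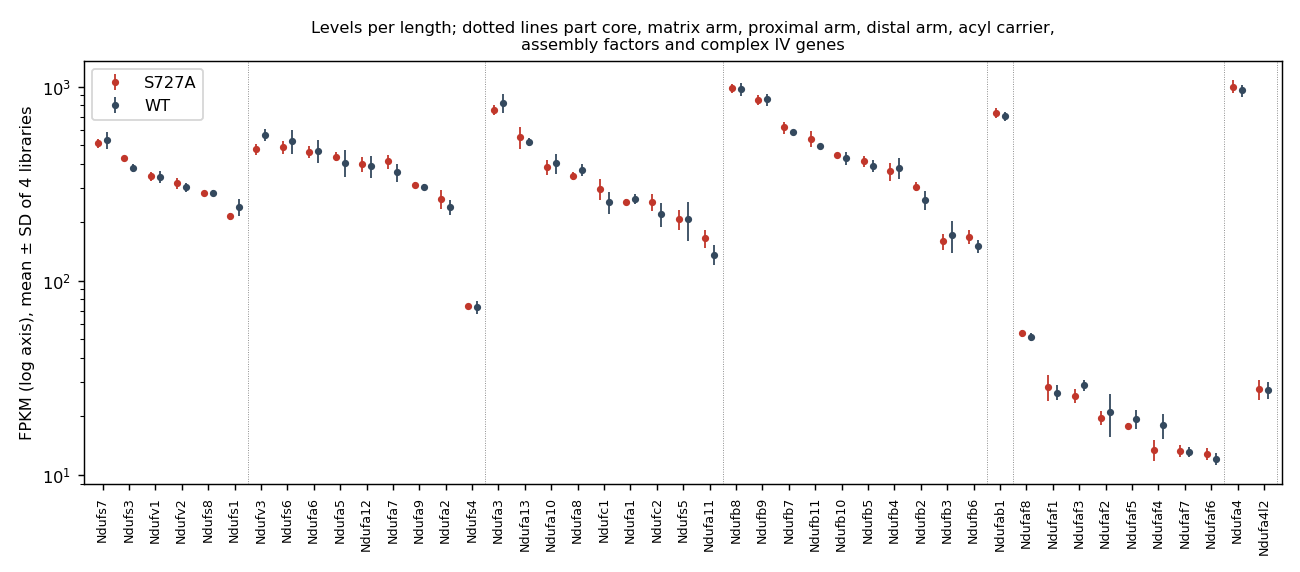
Mean FPKM (vertical axis, log scale) of Nduf genes (horizontal axis, by group) in S727A and WT hearts, with bars for the SD over 4 libraries. Subunits spread from 73.1 to 982 FPKM, assembly factors lie below all of them, and the genotypes differ little beside the distance between genes.

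A trend with transcript length ran through the whole table. Across 12890 genes with an annotated length, Spearman's rho between length and log2 fold change was -0.18. Genes of at most 600 bases had a median log2 fold change of 0.16 (131 genes), those of 600 to 1000 bases 0.10 (568 genes), those of 1000 to 1500 bases 0.07 (1163 genes) and those over 6000 bases -0.07 (1671 genes). Complex I transcripts are short, with a median of 908 annotated bases for the subunit entries against 3084 bases for all genes. The class of 600 to 1000 bases, which holds that length, had a median above 0. The part of length in the subunit median was not tested.

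The subunits were also read against genes of their own length. The copy Ndufb4c was left out of these classes. The 7 subunits of at most 600 bases had a median of 0.02 and the 13 of 600 to 1000 bases a median of 0.05, both below the medians of all genes in these classes. The 7 of 1000 to 1500 bases had 0.12, above theirs, though these classes hold few genes. That 0.12 is the value of Ndufa13, the middle gene of the 7. The classes used annotated lengths. By implied lengths most of these 7 would fall in shorter classes, such as Ndufc1 at about 352 bases and Ndufs3 at about 879. Within the subunits, rho was -0.09 over 37 genes, 0.0011 without S727A 1 and 0.0027 without WT 1, and it was 0.19 once length and GC content entered as offsets. The shorter 18 subunits had a median of 0.07 and the longer 18 a median of 0.05. With the offsets these became -0.04 and 0.0002, and 16 of the 36 subunits lay above 0. Lengths differ between sources for many of these genes. The median of the subunit entries is 908 bases in the annotation and about 598 as the deposited values imply. The gap is widest for Ndufb2, with 4371 bases in its principal transcript and about 411 implied. Ndufa13 has 1251 bases annotated and about 655 implied. The offsets used the lengths in the annotation.

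**Figure D4:**
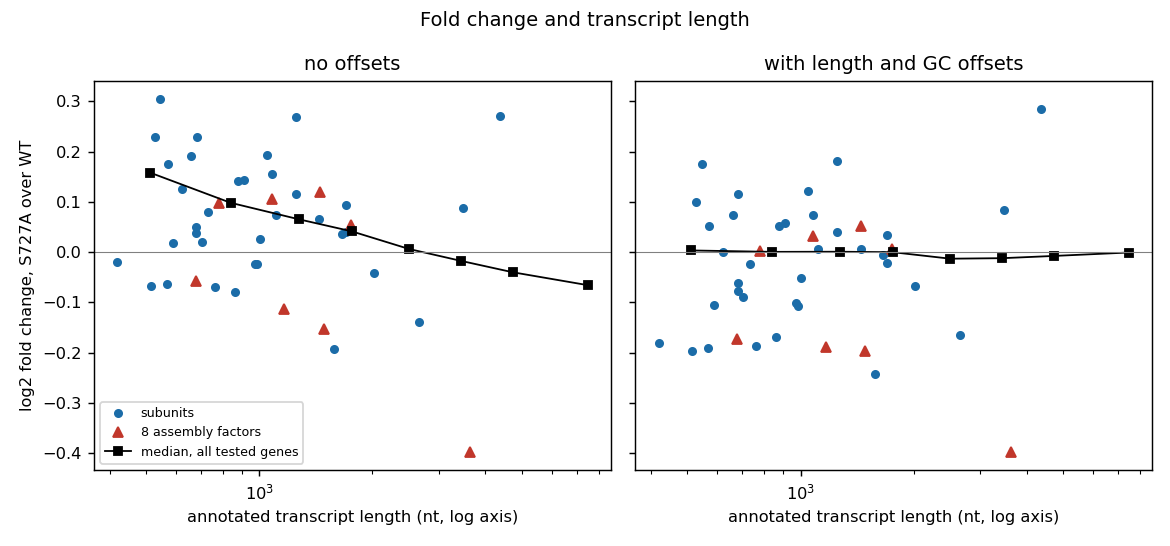
Log2 fold change of S727A over WT (vertical axis) against transcript length in bases (horizontal axis, log scale) for the subunits and assembly factors, beside the medians of all tested genes by length class (black squares), without offsets (left) and with length and GC offsets (right). On the left the all-gene medians run from 0.16 in the shortest class to -0.07 in the longest, and the subunits scatter around that line; with the offsets the subunit median was -0.02 in place of 0.07.

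The trend differed from library to library. Across all genes, the rho of a library's deviation from the 8-library mean with length was -0.19, -0.13, -0.03 and -0.05 in S727A 1 to 4, against 0.07, 0.19, 0.11 and 0.03 in WT 1 to 4. The 36 subunits lay on average 0.07, 0.06, 0.02 and -0.01 log2 CPM from that mean in S727A 1 to 4, against 0.02, -0.04, -0.10 and -0.02 in WT 1 to 4. S727A 4 lay below WT 1, so the groups overlap. The length implied by counts over FPKM also differed between libraries, for Ndufa1 439, 434, 426 and 437 in S727A 1 to 4 and 417, 419, 439 and 438 in WT 1 to 4. It differed more for some genes, such as Ndufb5, where it ran from 869 to 928 in S727A libraries and from 819 to 938 in WT libraries. The part of these shifts in the fold changes was not tested.

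**Figure D5:**
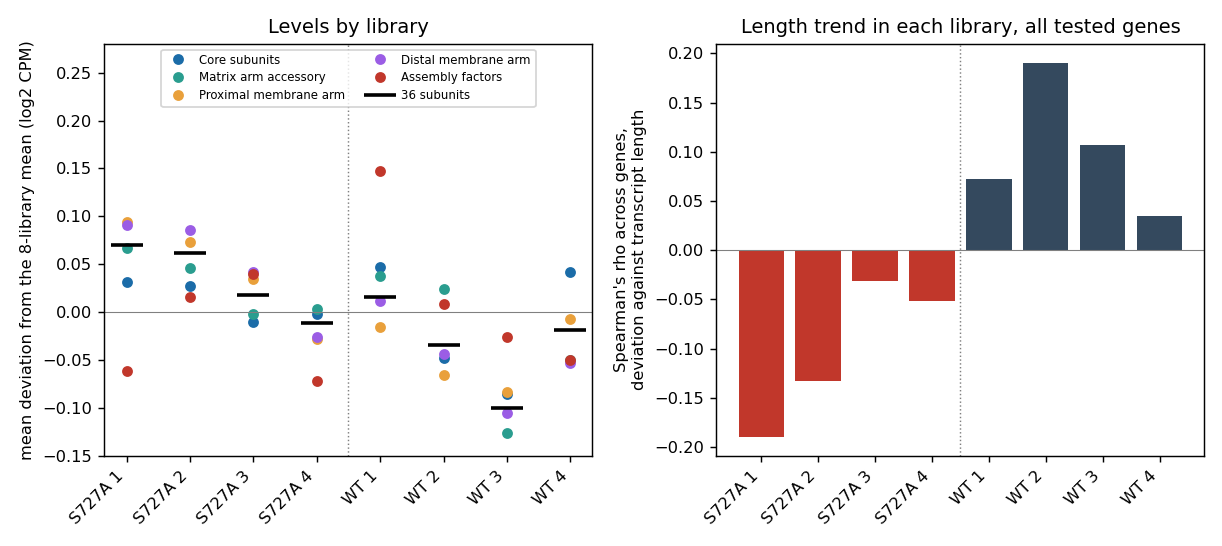
Left, mean deviation in log2 CPM from the 8-library mean (vertical axis) of each group of complex I genes in every library, with black lines for the 36 subunits; right, Spearman's rho across genes between a library's deviation and transcript length. The subunits are highest in S727A 1, at 0.07, and lowest in WT 3, at -0.10, and rho is below 0 in the 4 S727A libraries and above 0 in the 4 WT libraries.

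Total counts ran from 10577619 to 13305124 per library. Cardiomyocyte markers, none of which was at 0, summed to between 83308 and 91333 CPM in S727A libraries and between 78200 and 109845 CPM in WT libraries, and 0 of 10 were called. Their median log2 fold change was -0.14 (4 of 10 above 0), and 2 had an unadjusted p under 0.05 in edgeR, or 20% against 17.8% of all genes. Of markers for other cells, fibroblast markers had a median log2 fold change of 0.31 (7 of 7 above 0), macrophage markers -0.59 (0 of 6 above 0) and smooth muscle or pericyte markers -0.32 (0 of 6 above 0), with 0 called in each list by edgeR. At an unadjusted p under 0.05 in edgeR there were 4 of 7 fibroblast, 5 of 6 macrophage and 5 of 6 smooth muscle or pericyte markers. These are 57.1%, 83.3% and 83.3%, against the same 17.8% of all genes. Red cell markers had a median of 0.35 (4 of 4 above 0) and endothelial markers 0.05 (5 of 6 above 0). Atrial markers summed to between 2077 and 3867 CPM in S727A libraries and between 530.5 and 2450.2 CPM in WT libraries. Their median log2 fold change was nevertheless -0.28 (1 of 5 above 0), so the sums do not stand for most markers of that list. Airway markers summed to at most 0.545 CPM in S727A libraries and to 87.0 CPM in WT 1 and 32.5 CPM in WT 4. Without those 2 libraries, the subunits' median was 0.11 and 0 of the 47 Nduf genes were called by edgeR. At an unadjusted p under 0.05 in edgeR there were 4 of the 47, and 1307 over all genes. Transcripts of the Y chromosome summed to 0.699 CPM in S727A 4 and 0.467 CPM in WT 4, against at least 158 CPM in the other libraries. Without these 2 libraries again 0 of the 47 were called by edgeR. There, 9 of the 47 had an unadjusted p under 0.05 in edgeR, but so did 3050 over all genes, more than the 2308 of the main comparison. The part of these differences in the complex I values was not tested.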

How the data were processed

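The comparison used 8 RNA-seq libraries from whole hearts. Per the submitters' processing notes, the tools were FastQC, Bowtie2 and HISAT2, on the mouse build GRCm38.p6. For each library the deposited table gave every gene an estimated count, since 6.06% to 7.62% of the entries of a library were not whole. The labels name a stranded mRNA library, and they state neither the counting tool nor its use of strand. The deposited table also held FPKM values, a log2 ratio of S727A over WT and a p-value and q-value per gene, all computed by the authors.

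Counts were rounded. Genes were kept by filterByExpr (minimum count 10, minimum total 15) and compared with edgeR 4.0.16 in R 4.3.3 (TMM, quasi-likelihood F test, genotype as the only term, two-sided), with Benjamini-Hochberg adjustment over all 12998 genes. CPM used TMM-scaled library sizes. DESeq2 1.42.0, limma 3.58.1 (voom, and log2 of FPKM plus 1), another normalization, other filters, a replicate block, offsets for transcript length and GC content, and leaving out libraries were tried as alternatives. The fit was tested on simulated data. Lengths came from GENCODE M21 and promoters from RefSeq. No 2 libraries agreed within sampling noise.

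Always named were Ndufa13, Ndufa11, Ndufb2, Stat3, the core subunits save 1, the assembly factors, members whose groups did not overlap, and the 2 highest and 2 lowest in each group of subunits. That gene is not reported here by itself. Others were chosen after their values were seen. The members and the gene lists were chosen with earlier results of these data known.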

Additional observations from a re-analysis of the deposited data

Results flagged for a closer look

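In 7 of 74 groups of 4 libraries, a single library lay far outside the other 3 for a complex I gene, where independent groups would give about 1 in 20. The 74 groups are genes measured in the same libraries and are not independent, so no excess can be read from this count. Library S727A 1 was high for Ndufa11, at 507 CPM against 404 to 418 CPM in the other S727A libraries, and for Ndufa13, at 443 CPM against 334 to 344 CPM. Among the other S727A libraries, S727A 3 was low for Ndufa3, at 198 CPM against 227 to 231 CPM, S727A 4 was low for Ndufb3, at 93.4 CPM against 116 to 117 CPM, and S727A 2 was high for Ndufs8, at 222 CPM against 209 to 211 CPM. Among the WT libraries, WT 4 was high for Ndufab1, at 454 CPM against 405 to 413 CPM, and WT 3 was low for Ndufs8, at 198 CPM against 213 to 214 CPM.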

How the results depend on the processing

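In the main comparison and in all 20 alternatives, 0 of the 47 complex I genes were called, and the smallest adjusted p was 0.0531, for Ndufaf4 without WT 3. Over all genes, the 19 calls became 534 with DESeq2, 6 with voom, 6 with limma on FPKM, 242 without S727A 4 and WT 4, and 0 by edgeR without WT 1 and WT 4, where 1307 had an unadjusted p under 0.05. Leaving out single libraries gave 0 (without S727A 1, S727A 3 or WT 1) to 617 (without S727A 4). The subunit median of 0.07 was -0.021 with length and GC offsets and 0.11 without WT 1 and WT 4. The assembly factor median of -0.0013 was -0.086 with the offsets, and the subunits' length rho of -0.09 was 0.19. With single libraries left out, the subunit median ran from 0.037 to 0.084, lowest without S727A 1 and 0.042 without WT 3, the assembly factor median from -0.048 to 0.067, highest without WT 1, the length rho from -0.18 to 0.0027, highest without WT 1, and Ndufa13 from 0.0085 to 0.16, lowest without S727A 1.

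A replicate block gave 2 calls over all genes, and with the offsets also 2, a subunit median of -0.018 and a length rho of 0.18. The replicate numbers did not pair the libraries, whose same-numbered deviations correlated at -0.10 to 0.07.

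Among uncalled genes, the sign turned with the offsets, without and with the block, for Ndufa4 (-0.034 and -0.033), Ndufa4l2 (-0.038 and -0.042), Ndufb4c (-0.069 and -0.069), Ndufb8 (-0.061 and -0.056), Ndufb9 (-0.090 and -0.085), Ndufs4 (-0.021 and -0.018), Ndufs8 (-0.052 and -0.050) and Ndufv1 (-0.0050 and -0.0037). On FPKM it turned for Ndufb9 (-0.013) and Ndufs8 (-0.0018), without S727A 4 and WT 4 for Ndufs7 (0.039), and without WT 1 and WT 4 for Ndufa3 (0.040), Ndufa8 (0.0097), Ndufb4 (0.036) and Ndufs7 (0.050). With single libraries left out, values crossed 0 for Ndufa3 (-0.14 to 0.015), Ndufa4l2 (-0.021 to 0.11), Ndufaf2 (-0.20 to 0.083), Ndufb3 (-0.16 to 0.043), Ndufb4 (-0.084 to 0.039), Ndufb4c (-0.0013 to 0.15), Ndufb9 (-0.016 to 0.068), Ndufs6 (-0.13 to 0.011), Ndufs7 (-0.065 to 0.049) and Ndufv1 (-0.0078 to 0.084). The cause was not tested. The lowest count of a subunit in a library was 758, and that of an assembly factor 112.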
